A study of Homo sapiens with 12 samples.

Results

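ADGRE5, formerly named CD97, encodes a cell-surface receptor of the adhesion GPCR family. It was read on 12 Affymetrix expression arrays of human glioma cells, as every probe set annotated to the gene (Entrez gene 976). That was 1 probe set, for 1 gene of 8545 tested. The gene was selected on its own values in these groups, so its levels and differences are a description and carry no test.

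Each of the 6 groups held 2 arrays. The cells were the glioblastoma lines SNB19 and SF539, each transfected with a scramble siRNA, with PARK2 siRNA#1 (siRNA1 here) or with PARK2 siRNA#2 (siRNA2), and collected after 48 h. The PARK2 product, parkin, attaches ubiquitin to proteins of damaged mitochondria. PARK2 itself was not analysed here, and the extent of its knockdown is unknown from these values. Every group had received an siRNA with the same lipid reagent, scramble included. The lines were kept in different media, so line and medium cannot be told apart. The labels do not say whether duplicates came from separate cultures, and the spread behind each p-value, that of these arrays, may be technical.

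The ADGRE5 protein cleaves itself into an extracellular part with EGF-like repeats and a membrane-spanning part, which stay together at the surface. The extracellular part binds CD55, a complement-regulating protein on neighbouring cells, and also THY1, integrins and chondroitin sulfate, and the receptor can signal through G proteins. It is best known as an activation antigen of leukocytes, and it has also been described in glioblastoma.

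Values are on the log2 scale as deposited. Array medians lay between 5.94 and 6.14, and duplicates correlated with r from 0.991 to 0.998 across probe sets, which are not independent. The SF539 siRNA2 duplicates stood apart, with a median SD of 0.132 per gene against 0.0616 to 0.0852 in the other groups. No detection calls came with the values, and a level near an array's lower quartile, 3.93 to 4.02, is called dim here. Of 11 measured glial and glioma markers, 2 were below the lower quartile in SNB19 with scramble and 5 in SF539 with scramble, where the astrocyte genes GFAP (3.82 and 4.04), S100B (3.83 and 3.76) and FABP7 (3.77 and 3.81) were dim.

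ADGRE5 was lower with both PARK2 siRNAs than with scramble in both lines, and more so in SNB19. In SNB19 the values were 10.54 and 10.47 with scramble, 7.97 and 7.77 with siRNA1 and 9.01 and 8.93 with siRNA2. The SNB19 groups did not overlap, and siRNA1 gave the lowest values of all 12 arrays. In SF539 the values were 10.20 and 10.17 with scramble, 9.30 and 9.18 with siRNA1 and 9.63 and 9.36 with siRNA2. Every SF539 array with a PARK2 siRNA was below both scramble arrays.

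**Figure D1:**
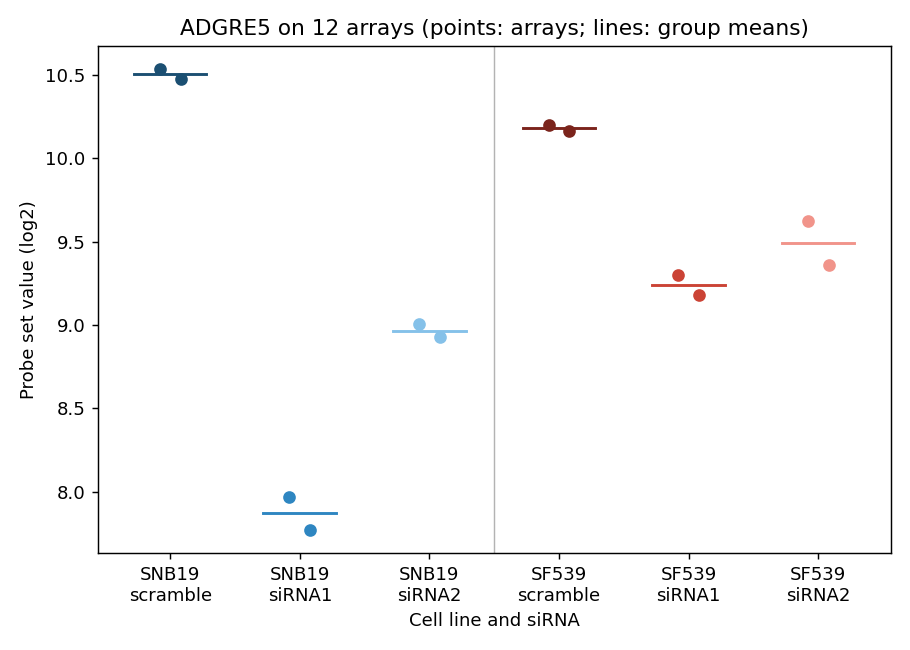
The plot gives the log2 value of the ADGRE5 probe set (vertical axis) on each array by cell line and siRNA (horizontal axis). Points are arrays and short lines are group means. The scramble arrays lie between 10.17 and 10.54, and the arrays with a PARK2 siRNA lie at or below 9.63, SNB19 siRNA1 being the lowest group.

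The mean of both PARK2 siRNAs minus scramble was -2.09 ± 0.10 in SNB19 (SE of the fit), a level 4.25-fold lower. Taken singly against the SNB19 scramble arrays, the level was 6.21-fold lower with siRNA1 and 2.91-fold lower with siRNA2. In SF539 the mean difference was -0.82 ± 0.10, a level 1.76-fold lower, with 1.92-fold for siRNA1 and 1.61-fold for siRNA2. The SF539 response minus the SNB19 response was 1.27 ± 0.13, so the decrease was smaller in SF539.

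siRNA2 minus siRNA1 was 1.10 ± 0.11 in SNB19 and 0.25 ± 0.11 in SF539, so the mean with siRNA1 was the lower in each line, in SF539 by an amount within the spread of duplicates. The SF539 difference was 0.12 without siRNA2 replicate 1 and 0.38 without siRNA2 replicate 2. In SNB19, 37 of the 8545 genes had a larger rise from siRNA1 to siRNA2 than ADGRE5 (0.433%), and in SF539 1161 had (13.6%).

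From highest to lowest, the group means of ADGRE5 were 10.51 ± 0.04 for SNB19 scramble, 10.18 ± 0.02 for SF539 scramble, 9.49 ± 0.19 for SF539 siRNA2, 9.24 ± 0.08 for SF539 siRNA1, 8.97 ± 0.06 for SNB19 siRNA2 and 7.87 ± 0.14 for SNB19 siRNA1 (SD, n = 2 each). No neighbours in this order overlapped. The nearest arrays of SF539 siRNA2 and SF539 siRNA1 were 0.06 apart, less than the replicate SD of the gene, 0.11, so these neighbours did not differ beyond their spread. The other gaps between nearest arrays ran from 0.18 to 0.96. SF539 minus SNB19 with scramble was -0.32 ± 0.11, and it was -0.16 when each array was centred on its median, a step that moved the median difference of all genes from 0.04 to 0.20.

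Few genes had a larger decrease than ADGRE5. They numbered 86 (1.01%) in SNB19 and 62 (0.726%) in SF539, and 8 did so in both lines, found from these values with no test. Of these, CXCL10, CXCL11, IDO1, ISG20, OASL and RSAD2 are known as interferon-induced genes, CFB encodes a complement protease and CTSS a lysosomal protease. The SNB19 and SF539 differences were -6.19 and -1.22 for RSAD2, -4.23 and -1.87 for CXCL10, -2.51 and -2.41 for CXCL11 and -2.19 and -1.31 for CTSS. The part of such genes' regulation in the ADGRE5 level was not tested.

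CD55, the ligand gene, was lower with both PARK2 siRNAs in both lines. In SNB19 CD55 read 8.55 and 8.66 with scramble, 7.60 and 7.59 with siRNA1 and 7.64 and 7.58 with siRNA2. In SF539 it read 10.64 and 10.61 with scramble, 9.62 and 9.45 with siRNA1 and 9.41 and 9.83 with siRNA2. All arrays with a PARK2 siRNA were below the scramble arrays of their line, and the 2 siRNAs overlapped. The CD55 difference was -1.003 ± 0.11 (limma adjusted p = 9.79e-05) in SNB19 and -1.05 ± 0.11 (limma adjusted p = 0.000563) in SF539. The second CD55 probe set gave -0.70 and -0.89. With scramble, SF539 minus SNB19 was 2.02 ± 0.13 (limma adjusted p = 7.41e-07), opposite in sign to the line difference of ADGRE5. The CD55 calls held under every alternative tried for them.

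THY1, a surface glycoprotein that binds the receptor, differed far more between the lines than with the siRNAs. It ranged from 10.72 to 11.02 in SNB19 and from 4.43 to 5.60 in SF539, and SF539 minus SNB19 with scramble was -5.36 ± 0.15 (limma adjusted p = 1.70e-09). In SNB19 the siRNA difference was -0.05 (limma adjusted p = 0.812). In SF539 THY1 read 5.60 and 5.46 with scramble, 4.43 and 4.87 with siRNA1 and 4.92 and 5.15 with siRNA2. Scramble did not overlap the siRNAs there, and the difference was -0.69 ± 0.13 (limma adjusted p = 0.00955). The 3 THY1 probe sets disagreed in SF539, at -0.69, -0.29 and 0.10. The SF539 call was lost with their mean (adjusted p = 0.0753), with the SF539 arrays alone (adjusted p = 0.0902) and without SF539 scramble replicate 1 (adjusted p = 0.0851).

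ITGA5 and ITGB1 encode the subunits of a fibronectin integrin that ADGRE5 binds, and they moved in opposite directions in SNB19. ITGA5 read 7.75 and 7.58 with scramble, 6.49 and 6.46 with siRNA1 and 6.65 and 6.89 with siRNA2 and was lower with the siRNAs, at -1.04 ± 0.19 (limma adjusted p = 0.00208). ITGB1 read 11.68 and 11.66 with scramble, 12.39 and 12.34 with siRNA1 and 12.28 and 12.34 with siRNA2 and was higher, at 0.67 ± 0.11 (limma adjusted p = 0.00109). Scramble and siRNA arrays did not overlap for either gene. The ITGB1 call was lost with the mean of its probe sets (0.16, adjusted p = 0.14), the 4 others being dim, with means over all arrays of 2.41, 2.61, 2.64 and 3.003. In SF539 the differences were -0.17 (limma adjusted p = 0.654) for ITGA5 and 0.15 (limma adjusted p = 0.435) for ITGB1, and siRNA2 replicate 2 was the highest array for both.

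ITGAV and ITGB3, whose products pair as a vitronectin receptor, were higher with the PARK2 siRNAs in SNB19. ITGAV read 10.75 and 10.79 with scramble, 12.11 and 12.09 with siRNA1 and 12.22 and 12.19 with siRNA2, a difference of 1.38 ± 0.17 (limma adjusted p = 0.000232). ITGB3 read 5.34 and 5.27 with scramble, 6.71 and 6.67 with siRNA1 and 7.90 and 7.80 with siRNA2, a difference of 1.96 ± 0.30 (limma adjusted p = 0.000787), or 0.83 as the mean of its 7 probe sets. Scramble lay below every siRNA array for both genes. In SF539 ITGAV read 10.46 and 10.37 with scramble, 10.82 and 10.75 with siRNA1 and 11.07 and 11.89 with siRNA2, a difference of 0.71 ± 0.17 (limma adjusted p = 0.0319). That call was lost without any 1 array other than the SF539 siRNA2 arrays (adjusted p from 0.0541 to 0.152) and with the SF539 arrays alone (adjusted p = 0.171), and the difference was 0.37 without both SF539 siRNA2 arrays (adjusted p = 0.0129). ITGB3 in SF539 read 5.84 and 5.69 with scramble, 5.71 and 5.66 with siRNA1 and 5.57 and 7.06 with siRNA2, so siRNA2 replicate 2 stood alone, and the difference was 0.24 (limma adjusted p = 0.691).

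LPAR1, a lysophosphatidic acid receptor reported to pair with ADGRE5, ranged from 4.27 to 4.999 in SNB19 and from 7.51 to 8.01 in SF539. SF539 minus SNB19 with scramble was 3.11 ± 0.18 (limma adjusted p = 3.63e-07). The siRNA differences were 0.34 (limma adjusted p = 0.134) in SNB19 and 0.09 (limma adjusted p = 0.774) in SF539. The LPAR1 probe sets disagreed in SNB19, where the others gave -0.22 (limma adjusted p = 0.236) and 0.75 (limma adjusted p = 0.000653), adjusted over all probe sets.

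Counted over these 7 ligand and partner genes, 3 rose and 2 fell in SNB19, where 32.8% of all genes were called, 15.5% higher and 17.4% lower. In SF539 1 rose and 2 fell, where 9.82% of all genes were called, 5.8% higher and 4.01% lower. With scramble, 4 were higher and 1 lower in SF539, where 49.3% of all genes were called, 24.6% higher and 24.7% lower. The median difference of the 7 was 0.34 in SNB19 and 0.09 in SF539, against -0.01 and -0.02 over all genes. The SF539 count of 3 was 1 without SF539 scramble replicate 1 and 5 without SF539 siRNA2 replicate 1.

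The response differed between the lines, by the interaction in the same limma fit, for 4 of the 7, with 1 more positive in SF539 and 3 more negative. Of all genes 19.1% were called in that comparison, 10.8% higher and 8.3% lower. Between the siRNAs, limma called 0 of the 7 in SNB19, with 1 at an unadjusted p under 0.05, and 0 in SF539, with 2. Of all genes 6.06% and 2.72% were called between the siRNAs. Centring the arrays on their medians changed the share of higher calls among all calls from 47.1% to 68.3% in SNB19, from 59.1% to 46% in SF539, from 49.9% to 66% between the lines and from 56.5% to 27.6% for the interaction.

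**Figure D2:**
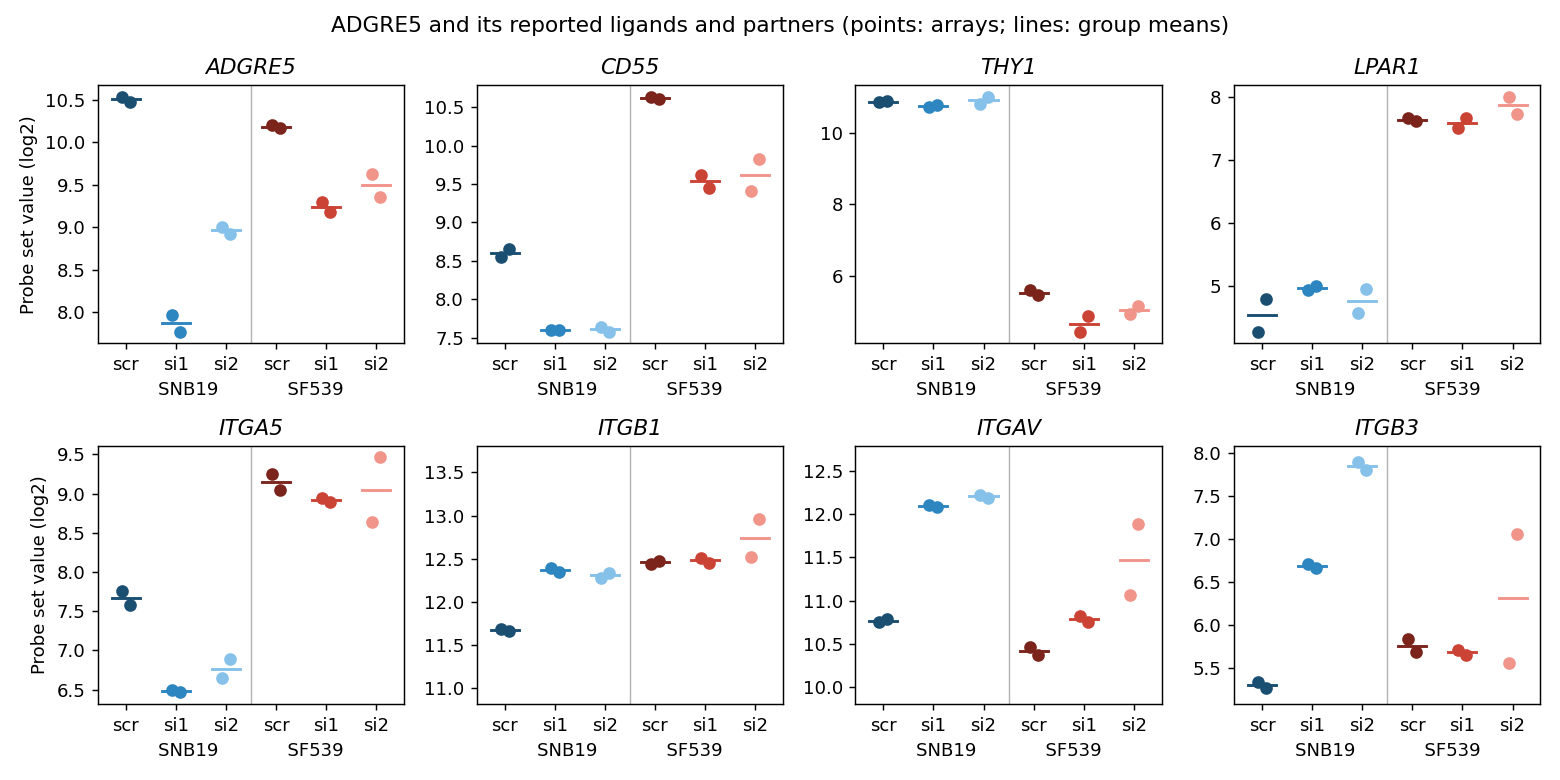
Each panel gives the log2 value (vertical axis, each panel with its own range) of ADGRE5 or 1 of its 7 ligand and partner genes on the 12 arrays, with scramble (scr), siRNA1 (si1) and siRNA2 (si2) of SNB19 left of the grey line and of SF539 right of it (horizontal axis). Points are arrays and lines are group means. ADGRE5 and CD55 lie lower with both siRNAs in both lines, and ITGAV lies higher.

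The closest relatives of ADGRE5 are the EGF-like adhesion receptors encoded by ADGRE1, ADGRE2 and ADGRE3. ADGRE1 read 5.50 and 5.67 with scramble, 4.72 and 4.02 with siRNA1 and 4.51 and 4.45 with siRNA2 in SNB19. Scramble lay above all siRNA arrays, siRNA1 replicate 2 was dim, and the difference was -1.16 ± 0.16 (limma adjusted p = 0.000358). In SF539 ADGRE1 ranged from 7.99 to 8.12, with a difference of -0.01 (limma adjusted p = 0.985). SF539 minus SNB19 with scramble was 2.46 (limma adjusted p = 2.28e-06). ADGRE2 ranged from 2.67 to 3.004 and ADGRE3 from 2.91 to 3.30, dim on all arrays, and neither was called in either line. ADGRE2 and ADGRE5 have related sequences, and the name of the ADGRE5 probe set carries the suffix for probes that can match several transcripts, so signal from a relative cannot be told apart.

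Of the 19 measured adhesion GPCR genes other than ADGRE5, 6 fell and 1 rose in SNB19. That share, 36.8%, was near the 32.8% of all genes called there. By direction, 17.4% of all genes were called lower and 15.5% higher. ADGRG2, an orphan receptor, read 8.26 and 8.18 with scramble, 6.67 and 6.37 with siRNA1 and 6.61 and 6.54 with siRNA2, a difference of -1.67 ± 0.16 (limma adjusted p = 4.30e-05). ADGRL3, a latrophilin of synapses, differed by -1.43 ± 0.15 (limma adjusted p = 5.70e-05) and ADGRG6, a receptor needed for Schwann cell myelination, by -0.95 ± 0.08 (limma adjusted p = 1.64e-05). The others that fell were ADGRE1, CELSR3 and the latrophilin gene ADGRL1. The CELSR3 difference of -0.61 was -0.46 and not called without SNB19 scramble replicate 1 (adjusted p = 0.142). ADGRA3 rose, with siRNA1 at 9.03 and 8.93, siRNA2 at 8.08 and 8.10 and scramble at 8.08 and 8.08, so its rise lay with siRNA1. The median of the 19 was -0.04, against -0.01 over all genes.

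In SF539 3 of the 19 rose and limma called none lower, with 1 lower at an unadjusted p under 0.05. Of all genes 5.8% were called higher in SF539 and 4.01% lower. ADGRL1 read 5.54 and 5.22 with scramble, 5.85 and 5.94 with siRNA1 and 6.18 and 6.26 with siRNA2, a difference of 0.68 ± 0.10 (limma adjusted p = 0.00391), while in SNB19 it read 7.12 and 6.89 with scramble, 6.61 and 6.54 with siRNA1 and 6.36 and 6.39 with siRNA2, a difference of -0.53 ± 0.10 (limma adjusted p = 0.00333). Scramble thus lay below the siRNAs in SF539 and above them in SNB19. ADGRL2 differed by 0.64 ± 0.11 (limma adjusted p = 0.00575) and ADGRA3 by 0.26 ± 0.07 (limma adjusted p = 0.0389). The SNB19 call of ADGRL1 was lost without SNB19 scramble replicate 1 (adjusted p = 0.0542), and its SF539 call with the SF539 arrays alone (adjusted p = 0.05001). The ADGRL2 call was lost with the SF539 arrays alone (adjusted p = 0.0795) and without SF539 scramble replicate 1 (adjusted p = 0.0628), where the count of 3 became 1. The ADGRA3 call was lost in 15 of 21 alternatives. Among these were quantile normalization (adjusted p = 0.0866), median centring (adjusted p = 0.0793), array weights (adjusted p = 0.0897) and the SF539 arrays alone (adjusted p = 0.204). It was also lost without any 1 array other than the SF539 siRNA2 arrays, the difference over left-out arrays being 0.23 to 0.28.

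With scramble, 7 of the 19 were lower in SF539 and 1, ADGRE1, was higher, 42.1% against 49.3% of all genes called. ADGRG2 read 8.26 and 8.18 in SNB19 and 3.64 and 3.69 in SF539, where it was dim, a difference of -4.56 (limma adjusted p = 3.24e-08). CELSR2, an atypical cadherin of planar cell polarity, differed by -3.17 (limma adjusted p = 1.21e-07), ADGRL1 by -1.62 (limma adjusted p = 2.22e-06) and ADGRG6 by -1.32 (limma adjusted p = 1.54e-06).

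Chondroitin sulfate, a further ligand, is built and sulfated by enzymes, and 8 of the 21 listed genes for them were measured. In SNB19 4 fell and 2 rose, with a median difference of -0.37. The share called was 75%, against 32.8% of all genes, 17.4% lower and 15.5% higher. B3GAT3, which completes the linker to the core protein, read 6.96 and 6.93 with scramble, 6.31 and 6.34 with siRNA1 and 6.32 and 6.24 with siRNA2, a difference of -0.65 ± 0.08 (limma adjusted p = 0.000286). The sulfotransferase gene CHST15 differed by -0.77 ± 0.10 (limma adjusted p = 0.000304), and the chain polymerising genes CHSY1 and CHPF by -0.72 and -0.57. Without SNB19 scramble replicate 2 the CHSY1 call was lost (adjusted p = 0.0563), and without scramble replicate 1 CHPF was -0.33 and not called (adjusted p = 0.121). The sulfotransferase genes UST and CHST7 rose, with differences of 0.51 ± 0.07 (limma adjusted p = 0.000507) and 0.41 ± 0.09 (limma adjusted p = 0.00585), the latter lost without SNB19 scramble replicate 2 (adjusted p = 0.0605). In SF539 only B3GAT3 passed among the 8 measured (12.5%, against 9.82% of all genes), reading 6.87 and 6.63 with scramble, 6.13 and 6.25 with siRNA1 and 6.28 and 6.20 with siRNA2, a difference of -0.53 ± 0.08 (limma adjusted p = 0.0047). Its SF539 call was lost with the SF539 arrays alone (adjusted p = 0.0748), and without SF539 siRNA2 replicate 1 the count was 4.

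With scramble, 5 of these 8 genes were lower in SF539 and 1 was higher (75% called, against 49.3% of all genes), with a median difference of -0.68 against 0.04 over all genes. CHST15 differed by -3.04 (limma adjusted p = 2.00e-08), CHST3 by -1.48 (limma adjusted p = 3.07e-05) and CHST7 by -1.17 (limma adjusted p = 7.13e-06). XYLT1, which starts the chains, read 3.17 and 3.13 in SNB19, where it was dim, and 6.62 and 6.24 in SF539, a difference of 3.28 (limma adjusted p = 1.66e-06).

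Known target genes of the transcriptional regulators SRF and YAP had 13 measured members. In SNB19 5 rose and limma called none lower, with 1 lower at an unadjusted p under 0.05. That share, 38.5%, was near the 32.8% of all genes called there. By direction, 15.5% of all genes were called higher and 17.4% lower. CNN1, which encodes calponin, read 4.42 and 4.43 with scramble, 4.56 and 4.71 with siRNA1 and 5.59 and 5.57 with siRNA2, a difference of 0.68 ± 0.09 (limma adjusted p = 0.000279) that lay mostly with siRNA2. The focal adhesion gene VCL differed by 0.41 ± 0.08 (limma adjusted p = 0.00235), the matricellular gene CCN1 by 0.47 ± 0.12 (limma adjusted p = 0.0132), the tropomyosin gene TPM1 by 0.60 ± 0.17 (limma adjusted p = 0.0197) and ANKRD1 by 0.94. ANKRD1 read 8.34 and 8.34 with scramble, 8.54 and 8.41 with siRNA1 and 10.18 and 9.97 with siRNA2, so its difference lay with siRNA2. Its call was lost without any 1 SNB19 array, SF539 scramble array or SF539 siRNA1 array (adjusted p from 0.0518 to 0.158). The CCN1 call was lost without SNB19 scramble replicate 1 (adjusted p = 0.138), and the TPM1 call without either scramble array, siRNA1 replicate 2 or siRNA2 replicate 2 of SNB19 (adjusted p from 0.0503 to 0.103). With the mean of probe sets VCL did not pass (adjusted p = 0.0843), nor did TPM1 (adjusted p = 0.0828). The count of 5 was 2 without SNB19 scramble replicate 1 and 3 without scramble replicate 2, siRNA1 replicate 2 or siRNA2 replicate 2.

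In SF539 1 of the 13 fell (7.69%, against 9.82% of all genes called), FHL2, a LIM-domain cofactor gene, which read 9.77 and 9.64 with scramble, 9.24 and 9.32 with siRNA1 and 9.01 and 9.18 with siRNA2, a difference of -0.51 ± 0.08 (limma adjusted p = 0.00445). It did not pass with the SF539 arrays alone (adjusted p = 0.0651). The SF539 siRNA2 duplicates disagreed for the actin-binding gene TAGLN, at 4.08 and 8.98, while the other SF539 arrays read 3.66 to 4.27. The SF539 count was 5 without siRNA2 replicate 1 and 2 without siRNA2 replicate 2, scramble replicate 2 or both siRNA2 arrays. The list's median was 0.34 in SNB19 and 0.14 in SF539. With scramble, the smooth muscle actin gene ACTA2 differed by -2.88 (limma adjusted p = 2.75e-06), FHL2 by -0.79 and VCL by -0.73, while CCN1 and AMOTL2 were higher in SF539 by 0.69 and 0.50. With the mean of probe sets ACTA2 differed by -1.53, VCL by -0.36 and CCN1 by 0.96, all still called. The AMOTL2 call was lost without SF539 scramble replicate 2 (0.29, adjusted p = 0.0801) and without SNB19 scramble replicate 2 (adjusted p = 0.0595).

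**Figure D3:**
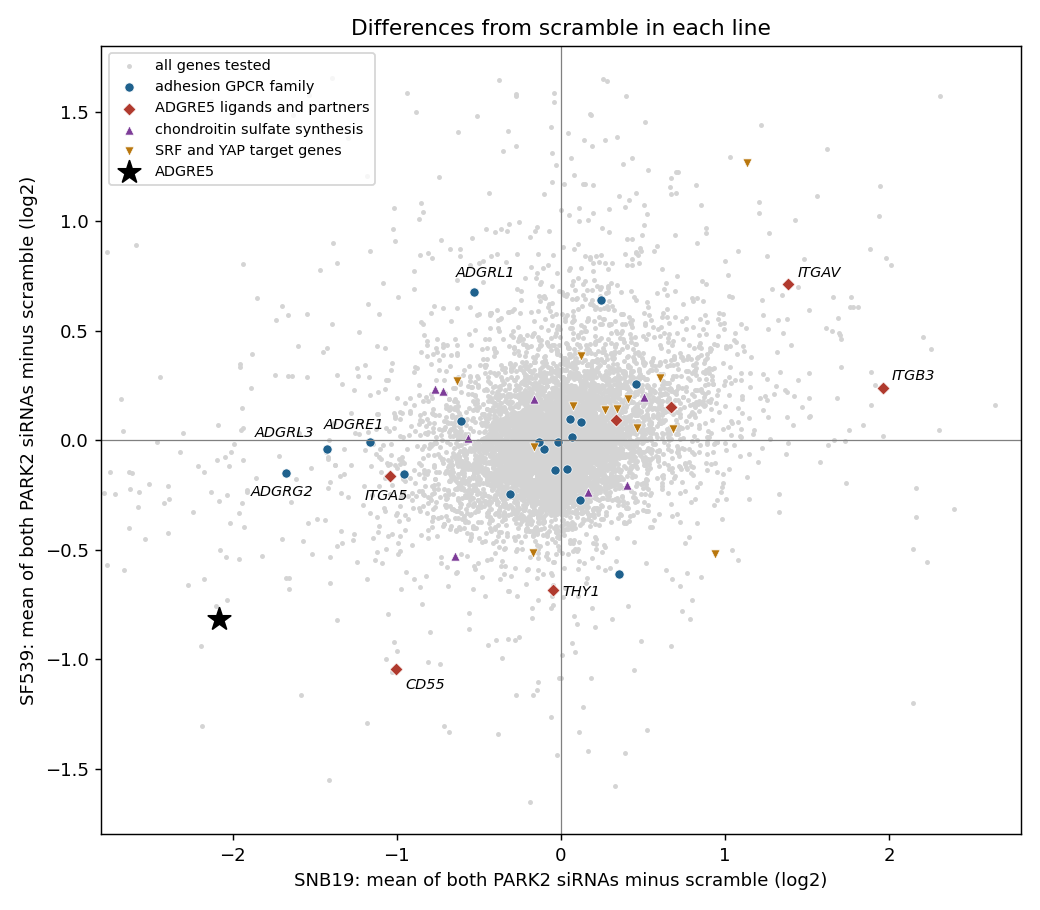
Each point is a gene, placed by the mean of both PARK2 siRNAs minus scramble in SNB19 (horizontal axis, log2) and in SF539 (vertical axis, log2). Grey points are all genes tested, coloured symbols the 4 lists and the star ADGRE5, which lies at -2.09 and -0.82, with CD55 in the same quadrant at -1.003 and -1.05. The axes end at 2.8 and 1.8 on either side of 0, and 75 genes lie beyond them.

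ADGRE5 is best known on leukocytes, so 15 leukocyte genes were read on the same arrays. PTPRC, the pan-leukocyte gene, ranged from 2.76 to 3.09 and the myeloid factor gene SPI1 from 3.15 to 3.76, both below the lower quartile on all 12 arrays. Of the 15, 5 to 7 were below it in each group, and the rest were above it. The mean of the 15 per array lay between 4.15 and 4.25 in SNB19 and between 4.35 and 4.56 in SF539. In SNB19 1 rose, CD2, and 1 fell, ITGB2, and in SF539 1 rose, CSF1R, and 1 fell, again ITGB2. The share called was 13.3% in SNB19 and 13.3% in SF539, against 32.8% and 9.82% of all genes. The CD2 call was lost without SNB19 scramble replicate 1, siRNA1 replicate 1 or either siRNA2 array (adjusted p from 0.068 to 0.271), and the SF539 call of ITGB2 with the SF539 arrays alone (adjusted p = 0.0555). ITGB2, the shared beta subunit of leukocyte integrins, read 4.50 and 4.43 with scramble, 3.67 and 3.72 with siRNA1 and 4.15 and 4.20 with siRNA2 in SNB19 and 6.60 and 6.57 with scramble, 6.29 and 6.17 with siRNA1 and 5.91 and 5.69 with siRNA2 in SF539, with differences of -0.53 (limma adjusted p = 0.00079) and -0.57 (limma adjusted p = 0.00271). In SNB19 ITGB2 was dim with the siRNAs, and below the lower quartile with siRNA1. Each array read a culture of a single line in bulk, so fewer expressing cells and less RNA per cell cannot be told apart.

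Of the 11 glial and glioma markers, 3 rose, 2 fell and 6 were not called in SNB19, 45.5% called against 32.8% of all genes. The mean of the 11 per array was 8.49 and 8.54 with scramble and 8.95 to 9.03 with the siRNAs. GFAP, the astrocyte filament gene, read 7.08 and 6.72 with scramble, 10.43 and 10.57 with siRNA1 and 10.24 and 10.68 with siRNA2. GFAP, S100B and FABP7 rose, and these 3 calls held under the alternatives tried. The GFAP difference was 3.58, but 1.755 with the mean of its probe sets. SOX2 and PDGFRA fell, by calls that were lost without any 1 SNB19 array (adjusted p from 0.064 to 0.15 for PDGFRA) and, for SOX2, also without either SF539 siRNA1 array (adjusted p from 0.0636 to 0.284). In SF539 CD44 and SOX9 fell (18.2% called, against 9.82%). The CD44 call was lost without any 1 array other than the SF539 siRNA2 arrays (adjusted p from 0.0774 to 0.188) and the SOX9 call without SF539 scramble replicate 1 (adjusted p = 0.102). Without both SF539 siRNA2 arrays CD44 was -0.13 (adjusted p = 0.209) and SOX9 -0.25 (adjusted p = 0.15). In SF539 the list mean lay between 6.31 and 6.47. Their part in the ADGRE5 difference was not tested.

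In RefSeq order on chromosome 19, the nearest measured genes were IL27RA, PRKACA and ADGRL1 before ADGRE5 and DDX39A, PTGER1 and DNAJB1 after it. Of these 6, ADGRL1 was called lower in SNB19 and higher in SF539, and DNAJB1 was called lower in SF539. None was called lower in both lines. Of all genes 17.4% were called lower in SNB19 and 4.01% in SF539, so 6 genes are too few to read a difference from that. PRKACA, a catalytic subunit gene of protein kinase A, differed by 0.28 (limma adjusted p = 0.033) in SNB19 and 0.26 (limma adjusted p = 0.0992) in SF539. Its SNB19 call was lost without scramble replicate 1, either siRNA1 array or siRNA2 replicate 2 of SNB19 (adjusted p from 0.0636 to 0.279). DNAJB1, a heat shock gene, differed by -0.10 (limma adjusted p = 0.45) in SNB19 and -0.37 (limma adjusted p = 0.0327) in SF539, and that SF539 call was lost without either scramble or siRNA1 array of SF539 and without any 1 siRNA array of SNB19 (adjusted p from 0.0558 to 0.215), and without both SF539 siRNA2 arrays the difference was -0.22 (adjusted p = 0.134). The SNB19 and SF539 differences were 0.37 and 0.53 for IL27RA, -0.21 and 0.04 for DDX39A, and 0.20 and -0.06 for PTGER1, none of them called.

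Genes whose values ran like those of ADGRE5 were ranked by Pearson's r over the 12 arrays among the 5126 brighter genes, as a description, since the arrays share lines and treatments. The highest r were 0.98 for SUPT7L, a subunit gene of a histone acetyltransferase complex, 0.97 for ACYP1, an acylphosphatase gene, 0.95 for AP3M2, a vesicle adaptor gene, 0.94 for EPS8, an actin-regulating substrate of the EGF receptor, and 0.94 for AREL1, a ubiquitin ligase gene. Group means of SUPT7L were 9.60 with scramble, 9.15 with siRNA1 and 9.35 with siRNA2 in SNB19 and 9.51, 9.40 and 9.47 in SF539, so it kept the order of ADGRE5 within each line over a smaller range. Group means of ACYP1 were 8.76 with scramble, 7.64 with siRNA1 and 8.03 with siRNA2 in SNB19 and 8.51, 8.09 and 8.22 in SF539. Within the 6 arrays of SNB19 and of SF539, r was 0.99 and 0.89 for SUPT7L, 0.98 and 0.95 for ACYP1, and 0.996 and 0.59 for EPS8.

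The lowest r were -0.96 for the mismatch repair gene MSH6, -0.96 for UST and -0.95 for MAGED1, a gene of the MAGE family. Group means of MAGED1 were 10.97 with scramble, 12.26 with siRNA1 and 11.68 with siRNA2 in SNB19 and 10.84, 11.67 and 11.65 in SF539. CD55 had r = 0.62 over the 12 arrays, 0.91 within SNB19 and 0.89 within SF539. ITGAV had -0.78, -0.88 and -0.58. With Spearman's rank correlation 2 of the 5 most alike genes, SUPT7L and ACYP1, stayed among the first 5.

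**Figure D4:**
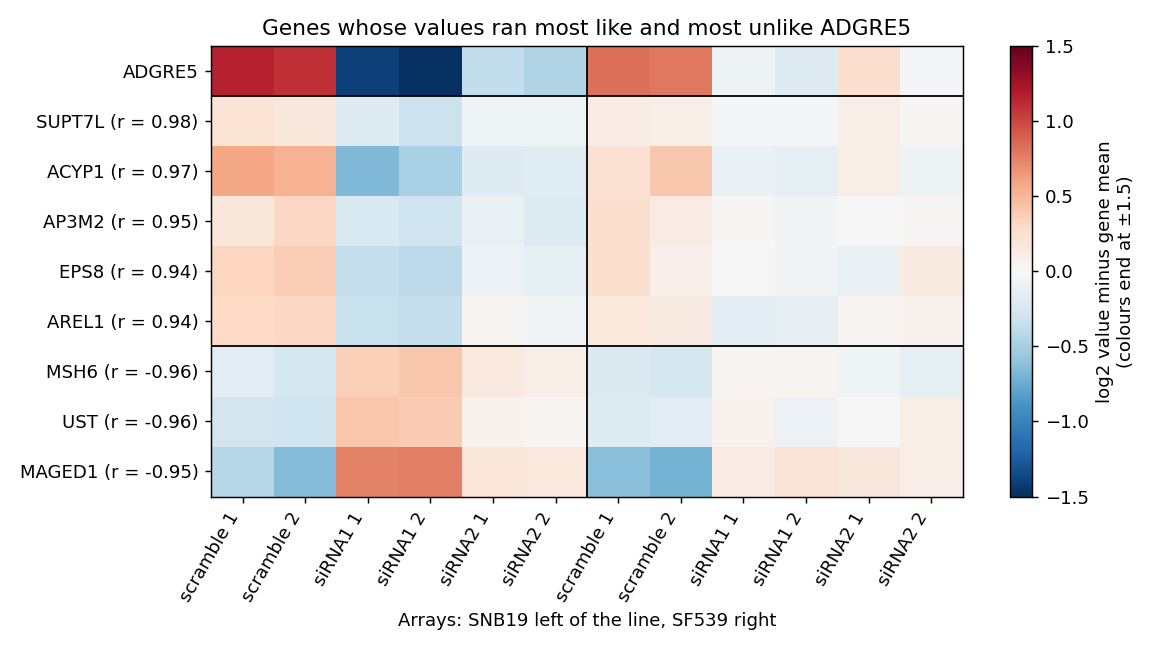
The map shows ADGRE5 on top, then the 5 genes with the highest and the 3 with the lowest r to it (vertical axis) over the 12 arrays (horizontal axis), with colour for the log2 value minus the gene's mean over all arrays. For ADGRE5 and the 5 genes the scramble arrays are above the mean and the SNB19 siRNA1 arrays lowest, and the 3 others run the opposite way.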

How the data were processed

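The deposited table gives 1 log2 value per probe set and array for 16376 probe sets, and the submitters' processing notes name only Partek. Background correction, normalization, probe set summary and genome build as the authors used them: not given in the sources used here. The platform's gene table gave 14038 probe sets 1 gene, 792 several and 1546 none, and 14028 were matched by Entrez identifier to RefSeq (GRCh38.p14), used for names and gene order. The probe set with the highest mean stood for its gene. One model of the 6 groups was fitted to 8545 genes over all arrays in limma 3.58.1 under R 4.3.3 (lmFit, eBayes; degrees of freedom 6 residual, 3.65 prior). P-values were two-sided and adjusted by Benjamini-Hochberg over all genes, with calls under 0.05. Only the limma fit was tried on simulated arrays, which had known changes and independent noise. With 2 arrays per group, their number limits the precision.

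The gene, the lists and the tests were chosen with earlier results of these data known. Named genes were the ligands and partners, ADGRE1 to ADGRE3, up to 4 called genes of each other list by smallest p, the 3 nearest measured genes on each side, and the ends of the correlation ranking. The 8 genes with larger decreases in both lines and the leukocyte and glial genes were named after their values were seen. So were ADGRA3, CELSR3, CHSY1 and CHPF in SNB19, ANKRD1, AMOTL2, TAGLN and the interaction of ADGRG1. The closing section gives the alternatives; leaving out both SF539 siRNA2 arrays was chosen after seeing the data, and a group with 1 array left was assumed to vary like the others. No ADGRE5 sequence was used here, and 1 planned gene list is not reported here.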

Additional observations from a re-analysis of the deposited data

Results flagged for a closer look

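For 20 of the named list and neighbour genes the response to the PARK2 siRNAs differed between the lines, by the interaction (SF539 response minus SNB19 response, ± SE) in the limma fit over all 8545 genes. Of all genes 19.1% were called for the interaction. Many of the 20 were named because limma called them in a line, or after their values were seen, so their number cannot be set against that share. Among the partners of ADGRE5, it was -0.64 ± 0.18 for THY1 (adjusted p = 0.034), 0.88 ± 0.27 for ITGA5 (adjusted p = 0.0468), -0.52 ± 0.15 for ITGB1 (adjusted p = 0.0435) and -1.72 ± 0.43 for ITGB3 (adjusted p = 0.0203). These 4 did not hold without single arrays, being lost in 9, 13, 13 and 4 of 20 alternatives, with adjusted p over left-out arrays up to 0.117 for THY1.

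Among the adhesion GPCR genes the interaction was 1.15 ± 0.22 for ADGRE1 (adjusted p = 0.0061), 0.80 ± 0.11 for ADGRG6 (adjusted p = 0.00108), 1.52 ± 0.23 for ADGRG2 (adjusted p = 0.00166), 1.38 ± 0.21 for ADGRL3 (adjusted p = 0.00146) and 1.21 ± 0.15 for ADGRL1 (adjusted p = 0.000429). Of these 5, ADGRL1 had differences of opposite sign in the lines, -0.53 in SNB19 and 0.68 in SF539. ADGRG2, ADGRG6 and ADGRL3 were dim in SF539. The interaction was 1.002 ± 0.14 for CHST15 (adjusted p = 0.00122), -0.61 ± 0.12 for CHST7 (adjusted p = 0.00773) and -0.63 ± 0.13 for CNN1 (adjusted p = 0.00686). These 8 calls held under the alternatives tried. Of the 19 measured adhesion GPCR genes, 6 were called for the interaction (31.6%, against 19.1% of all genes), 5 higher and 1 lower. The lower one was ADGRG1, at -0.96 ± 0.29 (limma adjusted p = 0.0434), which was not run through the alternatives. Its SF539 siRNA2 duplicates read 9.22 and 8.26.

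The interaction was also called for 8 further genes named after their values were seen. It was -3.72 ± 0.22 for GFAP (adjusted p = 3.06e-06), -1.58 ± 0.24 for FABP7 (adjusted p = 0.00166), -1.27 ± 0.21 for S100B (adjusted p = 0.00275) and 1.62 ± 0.34 for PDGFRA (adjusted p = 0.00982) among the glial markers, and these 4 calls held under the alternatives tried. With the mean of probe sets the interaction was smaller for GFAP (-1.85), FABP7 (-1.12) and PDGFRA (0.93). It was -0.54 ± 0.12 for CD44 (adjusted p = 0.0121), -0.52 ± 0.14 for SOX9 (adjusted p = 0.0261), 0.94 ± 0.23 for CHSY1 (adjusted p = 0.0172) and -1.46 ± 0.43 for ANKRD1 (adjusted p = 0.0404), and these 4 calls were lost without 1 or more single arrays (adjusted p up to 0.0546, 0.105, 0.0683 and 0.123). All 8 genes had differences of opposite sign in the lines, and none of the 8 was called in both lines. The difference was small in SF539 for GFAP (-0.14), FABP7 (-0.24) and S100B (-0.27), and in SNB19 for SOX9 (0.005).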

How the results depend on the processing

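Duplicates of each group, a lone array assumed to vary like the other groups when its duplicate is left out, limit every value, and dim genes allow little measured decrease. The ADGRE5 differences kept their sign under every alternative run. Median centring gave -1.96 in SNB19, -0.16 between the lines and 1.10 for the interaction, and leaving out both SF539 siRNA2 arrays gave -0.94 in SF539 and 1.15 for the interaction. Leaving out each array in turn, the ADGRE5 differences ranged from -2.14 to -2.04 (SNB19), -0.88 to -0.75 (SF539), -0.35 to -0.29 (the lines with scramble), 1.21 to 1.34 (the interaction), 0.996 to 1.20 (siRNA2 minus siRNA1 in SNB19), 0.12 to 0.38 (siRNA2 minus siRNA1 in SF539). Counts of called genes then ranged from 1741 to 3551 (SNB19), 371 to 1973 (SF539), 3438 to 4694 (the lines with scramble), 952 to 2686 (the interaction), 134 to 1082 (siRNA2 minus siRNA1 in SNB19), 3 to 2303 (siRNA2 minus siRNA1 in SF539). Called genes in SF539 were 165 with the arrays of that line alone and 1330 with every probe set on its own, which gave 6417 between the lines. Between the siRNAs in SF539 they were 24 with array weights, 0 with limma on that line's arrays alone (1194 at an unadjusted p under 0.05), 356 without the dimmest 40% of genes and 375 with a trended robust prior, and in SNB19 1427 with array weights and 1122 alone. With the SF539 arrays alone, called members in SF539 were 1 partner and 0 adhesion GPCR, 0 chondroitin sulfate and 0 SRF and YAP genes, and in the last 3 lists 4, 2 and 1 members had an unadjusted limma p under 0.05. Without the dimmest 40% of genes, which tests fewer members, the counts were 3 (SNB19) and 5 (between lines) adhesion GPCR genes. SRF and YAP genes in SNB19 were 3 with the mean of probe sets, and 2 in SF539 without both siRNA2 arrays. Leaving out each array, list counts in SNB19, SF539 and between the lines ranged from 5 to 6, 1 to 5 and 5 to 7 for the partners, 5 to 10, 1 to 4 and 8 to 8 for the adhesion GPCR genes, 4 to 6, 1 to 4 and 5 to 7 for the chondroitin sulfate genes, 2 to 7, 1 to 5 and 4 to 5 for the SRF and YAP genes. Replicate numbers did not pair the arrays (1 of 15 group pairs had deviations correlating above 0.1, r from -0.18 to 0.11). With the replicate block the called genes were 2761 in SNB19, 779 in SF539, 4182 between the lines, 1585 for the interaction and 424 and 198 between the siRNAs, and of the named calls ADGRA3 in SF539 (adjusted p = 0.0545), the interactions of ITGA5 (0.0581), ITGB1 (0.05007) and ANKRD1 (0.05007), and CD44 in SF539 (0.0591), were lost. Over all alternatives the calls of named list and neighbour genes held 1707 times and were lost 194 times, with no change of sign. With Spearman's correlation 2 of the 5 most alike genes were shared.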
